A study of Mus musculus with 11 samples.

Results

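The skeletal muscle programme is described here by 34 genes, out of 27179 in the count tables, in RNA-seq libraries of mouse mammary epithelial cells. The 34 genes comprised 4 satellite cell and determination factors, 3 differentiation factors, 6 sarcomeric myosin heavy chains, 3 myosin light chains, 7 troponins, 2 sarcomeric actins, 3 filament and scaffold proteins, muscle creatine kinase, 3 acetylcholine receptor subunits and 2 proteins of calcium release. They were listed by name, and the list was drawn up with the levels of muscle genes in the mammosphere library already known. Their levels in that library are therefore given as a description, without a test. All 34 had a row in every table, and 32 had at least 1 read in the mammosphere library.

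Cells were sorted from the mammary glands of wild-type virgin FVB/N females, aged 8 weeks per the labels, into 3 populations with 3 libraries each. CD24+CD29hi cells are the stem cell-enriched basal fraction (MaSC/basal), CD24+CD29loCD61+ cells the luminal progenitor-enriched fraction (LP) and CD24+CD29loCD61- cells the mature luminal-enriched fraction (ML). The mammosphere library was made from MaSC/basal cells of the same strain, age and genotype after 1 week in non-adherent culture, and its submitted name may combine more than 1 culture. The Comma Dβ library was made from CommaD-βGeo, a line labelled wild type and Balb/c and derived from a mid-pregnancy gland. Both cultured samples were single libraries, so they carry no p-value, and nothing in the labels ties the sorted replicates to separate animals, so that p-values measure the spread between these libraries. The labels give 3 library batches. Batch 1 held the mammosphere library and replicate 1 of each sorted population, batch 2 held replicate 2 of each and also MaSC/basal replicate 3, and batch 3 held Comma Dβ with replicate 3 of the luminal populations. MaSC/basal replicate 1 has p53 in its submitted name although it is labelled wild type.

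Between 19958838 and 75795034 reads were counted per library (MaSC/basal 51368625 to 57160817, LP from 19958838 to 60517657, ML from 21311068 to 75795034, mammosphere 38388464 and Comma Dβ 24285202). Levels are given as CPM, read counts scaled to a common library size, with library sizes adjusted by the trimmed mean of M values (TMM). A level of 0.5 CPM, taken as that of an expressed gene, was 22.3 reads in the mammosphere library, and a count of 0 there allows up to 3 reads, or 0.0674 CPM. Intervals in brackets are exact 95% intervals and cover counting error only.

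In skeletal muscle, PAX3 and PAX7 mark the precursors, and PAX7 the quiescent satellite cells of the adult. MYF5 and MYOD1 commit the precursors to the muscle lineage, and myogenin (MYOG), MYF6 and their partner MEF2C switch on the genes of the contractile fibre as the cells stop dividing and fuse. The first fibres contain embryonic and then perinatal myosin heavy chains, which are replaced by adult fast or slow forms. The mammary gland has no skeletal muscle of its own. Its contractile cells, the myoepithelial cells of the basal layer, use the smooth muscle forms of actin and myosin.

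Promoter sequence is shown first, because several of these genes were present together in 1 library and absent or nearly absent from the others. The MYF5, MYOD1 and MYOG proteins bind the E-box, CANNTG, and MEF2 proteins bind an AT-rich motif of their own. Windows from 250 bases before to 50 bases after the RefSeq transcription start (build GRCm38.p6) were given for 27 of the 34 genes, 32 windows in all. Both motifs were searched on both strands. For the MEF2 motif 1 of its outer letters was left free. CAGCTG is 1 form of the E-box and is also counted as an E-box. An E-box was found in 25 of the 32 windows (78.1%), against 72.3% of all 32851 windows. CAGCTG was found in 12 (37.5%, against 16.3%), a MEF2 motif in 10 (31.3%, against 7.66%), and both an E-box and a MEF2 motif in 8 (25.0%, against 5.77%). These are matches of letters and not sites shown to be bound, and several windows belong to neighbouring or related genes. The 250 bases before the start are printed 5′ to 3′ for the differentiation factor *Myog*, the embryonic and perinatal myosins *Myh3* and *Myh8*, the receptor subunits *Chrng* and *Chrna1*, and, for contrast, *Actc1*, which has neither motif. E-boxes and MEF2 motifs are in capitals.
*Myog*, chr1:134289754-134290003, plus strand: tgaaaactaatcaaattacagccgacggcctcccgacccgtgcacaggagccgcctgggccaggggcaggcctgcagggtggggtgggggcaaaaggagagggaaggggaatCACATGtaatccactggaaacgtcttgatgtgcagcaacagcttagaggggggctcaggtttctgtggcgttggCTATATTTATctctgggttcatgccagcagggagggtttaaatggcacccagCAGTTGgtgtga
*Myh3*, chr11:67078050-67078299, plus strand: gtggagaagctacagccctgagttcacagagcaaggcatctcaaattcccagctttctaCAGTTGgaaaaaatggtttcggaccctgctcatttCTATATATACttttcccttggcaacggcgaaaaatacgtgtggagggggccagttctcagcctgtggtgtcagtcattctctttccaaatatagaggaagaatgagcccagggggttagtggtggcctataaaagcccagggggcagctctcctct
*Myh8*, chr11:67276874-67277123, plus strand: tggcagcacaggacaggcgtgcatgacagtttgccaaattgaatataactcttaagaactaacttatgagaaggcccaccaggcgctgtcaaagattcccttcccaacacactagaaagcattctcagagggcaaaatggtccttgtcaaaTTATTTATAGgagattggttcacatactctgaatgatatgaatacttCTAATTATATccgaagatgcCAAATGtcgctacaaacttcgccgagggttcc
*Chrng*, chr1:87205561-87205810, plus strand: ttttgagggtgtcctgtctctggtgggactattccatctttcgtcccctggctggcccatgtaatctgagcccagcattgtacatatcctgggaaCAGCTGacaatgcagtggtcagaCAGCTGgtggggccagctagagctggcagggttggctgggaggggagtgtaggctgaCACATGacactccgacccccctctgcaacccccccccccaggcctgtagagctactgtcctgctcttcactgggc
*Chrna1*, chr2:73580339-73580588, minus strand: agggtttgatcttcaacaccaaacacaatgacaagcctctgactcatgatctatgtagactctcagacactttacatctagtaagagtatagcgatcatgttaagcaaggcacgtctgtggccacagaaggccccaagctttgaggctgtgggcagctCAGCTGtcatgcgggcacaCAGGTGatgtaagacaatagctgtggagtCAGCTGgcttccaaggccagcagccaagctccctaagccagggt
*Actc1*, chr2:114052876-114053125, minus strand: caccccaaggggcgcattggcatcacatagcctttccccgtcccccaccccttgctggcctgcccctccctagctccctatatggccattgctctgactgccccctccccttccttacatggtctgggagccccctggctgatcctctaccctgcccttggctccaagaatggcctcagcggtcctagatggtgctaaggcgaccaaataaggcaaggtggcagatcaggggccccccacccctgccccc

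The *Myog* sequence held 2 E-boxes and 1 MEF2 motif, that of *Myh3* 1 of each, and that of *Myh8* 1 E-box and 2 MEF2 motifs. The *Chrng* and *Chrna1* sequences held 3 E-boxes each and no MEF2 motif. No E-box or MEF2 motif was found before the starts of *Pax7*, *Myf5*, *Actc1*, *Myl4* or *Ryr1*, of which *Actc1*, *Myl4* and *Ryr1* had over 600 reads in the mammosphere library and the other 2 under 30.

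Most of the 34 genes were seen in the mammosphere library. The 34 genes together had 18959 reads there, 0.0494% of the library, which was 426 CPM. The same sum was 48.3, 59.8 and 51.0 CPM in the 3 MaSC/basal libraries, 14.2, 13.4 and 12.6 CPM in LP, 20.7, 24.0 and 27.7 CPM in ML, and 82.1 CPM in the Comma Dβ library. Of the 34 genes, 30 were over 0.5 CPM in the mammosphere library, against 54.0% of all 27179 genes. The number was 11 to 13 in the MaSC/basal libraries, 7 to 8 in LP libraries, 9 to 15 in ML libraries and 11 in Comma Dβ. The share of all genes in those libraries is not given here, so their numbers are not set against the 30. In the mammosphere library 27 were over 0.5 CPM and at least 4-fold above the summed MaSC/basal libraries (background 6.14% of all genes), and 28 were over 0.5 CPM and above each of the 9 sorted libraries (background 13.0%). Since the list was drawn up with these levels known, nothing is read from these shares. The 27 genes at least 4-fold above MaSC/basal made up 409 CPM of the 426. In bulk RNA, a small number of cells with a complete programme and a larger number with little RNA per gene cannot be told apart.

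**Figure D1:**
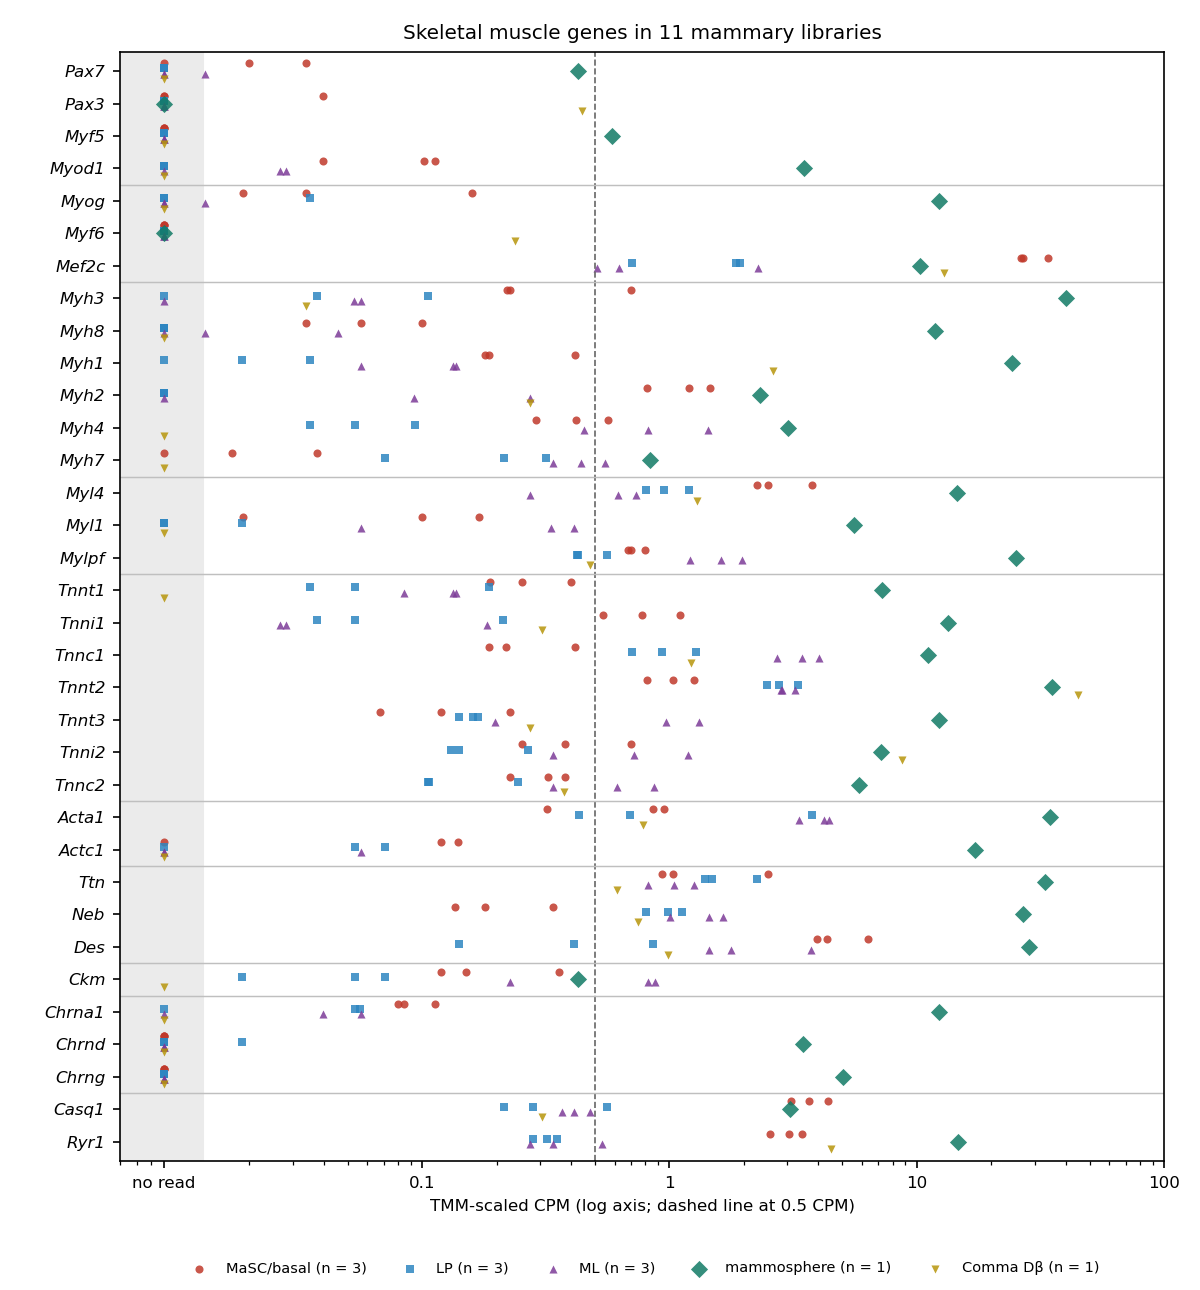
TMM-scaled CPM (log axis) of the 34 muscle genes in each of the 11 libraries, grouped by role from satellite cell factors at the top to calcium release at the bottom. Points in the grey band have no read, and the dashed line marks 0.5 CPM. The mammosphere point lies to the right of all 9 sorted points, and over 0.5 CPM, for 28 genes, while *Pax3* and *Myf6* have no mammosphere read.

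The satellite cell end of the programme was barely present, whereas the factor of differentiation was clear. *Pax7* had 19 reads in the mammosphere library (0.427 CPM [0.257 to 0.667]), below 0.5 CPM, and 0 to 2 reads in each sorted library. *Pax3*, the factor of embryonic precursors, had no read there, 2 reads in MaSC/basal replicate 2 and 13 in Comma Dβ. *Myf5*, 1 of the determination factors, had 26 reads (0.584 CPM [0.382 to 0.856]) and none in any of the other 10 libraries, so it lay just above the 0.5 CPM level and *Pax7* just below it. *Myod1*, the other determination factor, was more abundant, with 156 reads (3.51 CPM [2.98 to 4.10]), against 6, 2 and 6 reads in MaSC/basal, none in LP or Comma Dβ and 3 in ML. *Myog* followed with 550 reads, against 2, 8 and 1 reads in MaSC/basal, 1 in LP, 1 in ML and none in Comma Dβ. Its ratio to MaSC/basal was 182 [101 to 367]. Without MaSC/basal replicate 2, which held 8 of the 11 MaSC/basal reads, it was 462 [157 to 2246], and without replicate 3 it was 135 [72.8 to 283]. *Myf6*, which acts late in differentiation, had no read in the mammosphere library or in any sorted library and 7 in Comma Dβ. The order of the MYOD family in the mammosphere library was therefore *Myog*, *Myod1*, *Myf5* and *Myf6*, and no 2 neighbours in it had overlapping intervals. The order was the same per kb of exon, with 8.35 CPM per kb for *Myog*, 1.89 for *Myod1* and 0.281 for *Myf5*. *Mef2c* ran against the rest. It had 460 reads in the mammosphere library (10.3 CPM), below each MaSC/basal library (27.0, 34.1 and 26.5 CPM), with a ratio of 0.356 [0.323 to 0.392].

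Of the 6 sarcomeric myosin heavy chain genes, the embryonic form led. *Myh3* (chr11:67078273-67102291), the embryonic gene, had 1782 reads in the mammosphere library (40.0 CPM [38.2 to 42.0]), against 13, 35 and 12 in MaSC/basal, 3, 2 and 0 in LP, 2, 4 and 0 in ML and 1 in Comma Dβ. *Myh8*, the perinatal gene, had 526 reads (11.8 CPM) against 2, 5 and 3 in MaSC/basal, 2 in all LP and ML libraries together and none in Comma Dβ. The adult fast gene *Myh1* (type 2X) came between them with 1078 reads (24.2 CPM), against 11, 9 and 22 in MaSC/basal and at most 10 in any luminal library. The other adult fast genes were low. *Myh4* (type 2B) had 134 reads (3.01 CPM) and *Myh2* (type 2A) 103 (2.31 CPM). *Myh7*, the slow gene, had 37 reads (0.831 CPM). The ratios to MaSC/basal were 108 [83.7 to 143] for *Myh3*, 192 [104 to 402] for *Myh8*, 93.6 [68.8 to 131] for *Myh1*, 7.19 [5.33 to 9.77] for *Myh4* and 2.03 [1.58 to 2.60] for *Myh2*. *Myh7* had only 3 reads in the MaSC/basal libraries together (ratio 45.0 [14.2 to 228]), and at 0.831 CPM it lay not far above the highest sorted library, ML replicate 3 at 0.547 CPM.

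Divided by exon length, the 3660 myosin heavy chain reads of the mammosphere library were 49.0% *Myh3*, 14.1% *Myh8*, 29.5% *Myh1*, 3.67% *Myh4*, 2.79% *Myh2* and 1.01% *Myh7*. Embryonic and perinatal forms together made up 63.1%, adult fast forms 36.0% and the slow form 1.01%. In reads, without the length, the share of *Myh3* was 48.7% [47.1 to 50.3]. The sorted libraries had far fewer reads of this family and another make-up. In MaSC/basal, with 92, 143 and 133 reads, *Myh2* led in each library with 51.9%, 50.8% and 47.9%, and the embryonic and perinatal forms were 16.4%, 28.2% and 11.3%. ML replicate 2, the only luminal library with at least 50 such reads (163), was 66.4% *Myh4* and 20.2% *Myh7*, and the Comma Dβ library (86 reads) was 89.6% *Myh1*. The read share of *Myh3* in the mammosphere library thus lay above the counting interval of each of these libraries, of which MaSC/basal replicate 2 had the highest [17.7 to 32.4]. These genes resemble each other in sequence. Of all stretches of 100 bases in the transcripts, 14.7% in *Myh1*, 11.2% in *Myh2*, 6.61% in *Myh8*, 3.85% in *Myh4* and 1.15% in *Myh3* also occur in another gene, mostly another myosin of the same cluster, and 13.9% in *Myh7*, mostly in *Myh6*. How the authors' counting treated reads of such stretches is not given in the sources used here, so the smaller values, *Myh2* and *Myh4* in the mammosphere library among them, are uncertain.

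**Figure D2:**
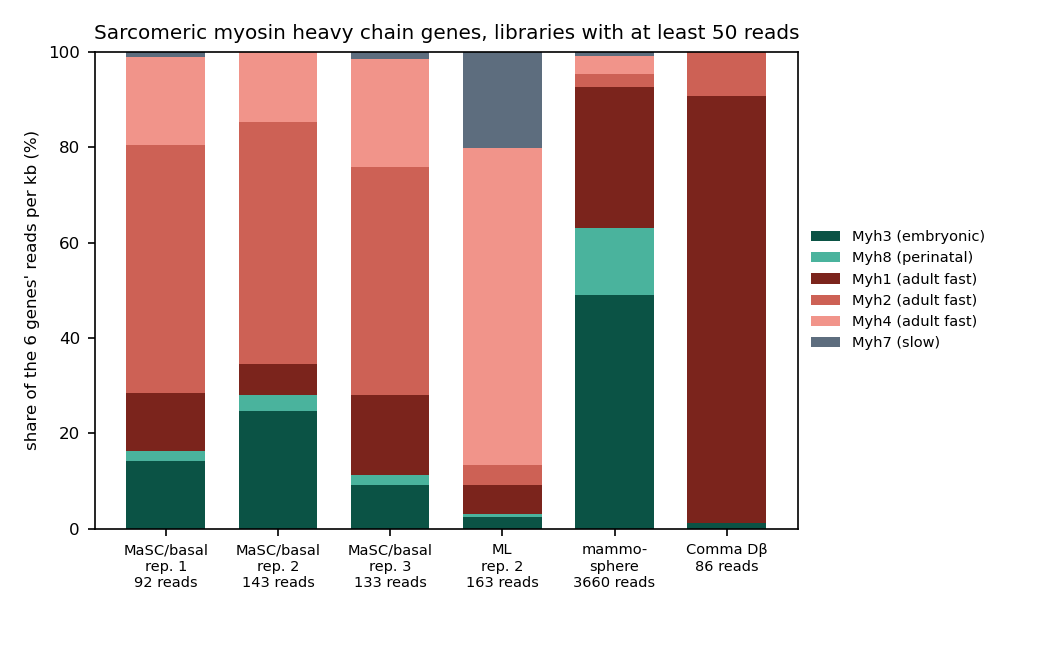
Shares (%) of the 6 sarcomeric myosin heavy chain genes, as reads per kb of exon, in the 6 libraries with at least 50 such reads, with the number of reads under each bar. The mammosphere bar is mostly embryonic *Myh3*, perinatal *Myh8* and adult fast *Myh1*, whereas *Myh2* leads in the MaSC/basal bars, *Myh4* in ML replicate 2 and *Myh1* in Comma Dβ.

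The partners of the heavy chain, the light chains, were present in embryonic and fast forms. *Mylpf*, the fast regulatory light chain, had 1117 reads in the mammosphere library (25.1 CPM), against 0.678 to 0.797 CPM in MaSC/basal, 0.423 to 0.561 CPM in LP and 1.22 to 1.96 CPM in ML. *Myl4*, the embryonic and atrial essential light chain, had 645 reads (14.5 CPM), and was also found in every other library, at 2.26 to 3.77 CPM in MaSC/basal and 0.273 to 1.29 CPM elsewhere. *Myl1*, the fast essential light chain, had 249 reads (5.60 CPM), and at most 0.410 CPM in a sorted library. A stretch of the *Myl1* transcript also occurs in the pseudogene *Mylf-ps* (9.36% of its 100-base stretches). Per kb, *Mylpf* was at 33.2 CPM per kb, *Myl4* at 16.4 and *Myl1* at 5.04, so of the essential chains the embryonic form was the more abundant.

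Both sarcomeric actins were present, the adult form at the higher level. *Acta1*, the skeletal form, is the major actin of adult fibres, and *Actc1*, the cardiac form, is common in developing skeletal muscle. *Actc1* had 766 reads in the mammosphere library (17.2 CPM), against 7, 7 and 0 in MaSC/basal, 2, 0 and 1 in LP, 2, 0 and 0 in ML and none in Comma Dβ, a ratio to MaSC/basal of 200 [118 to 367]. *Acta1* had 1538 reads (34.6 CPM), and 0.320 to 0.950 CPM in MaSC/basal. Unlike *Actc1*, it was also present in ML cells, at 4.21, 3.34 and 4.42 CPM, and in LP replicate 1, at 3.77 CPM, while LP replicates 2 and 3 had 0.430 and 0.694 CPM. Per kb, *Acta1* made up 66.1% and *Actc1* 33.9% of the pair in the mammosphere library, and *Actc1* at most 14.4% in any sorted library with at least 50 reads of the pair. Neither gene shares a stretch of 100 bases with another transcript. *Acta2*, the smooth muscle actin of myoepithelial cells, went the other way, with 5016 to 7563 CPM in MaSC/basal and 131 CPM in the mammosphere library.

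All 7 troponins were at least 4-fold above MaSC/basal in the mammosphere library, in fast, slow and cardiac forms. Of the tropomyosin-binding subunits, *Tnnt2*, the cardiac form that developing skeletal muscle also makes, had 1561 reads (35.1 CPM), the fast form *Tnnt3* 546 (12.3 CPM) and the slow form *Tnnt1* 322 (7.24 CPM). Per kb, *Tnnt2* was 61.1% of the 3, *Tnnt3* 22.8% and *Tnnt1* 16.1%. *Tnnt2* also led in each sorted library (61.9% to 94.4%), so its lead was not particular to the culture. Of the inhibitory subunits, the slow form *Tnni1* had 598 reads (13.4 CPM) and the fast form *Tnni2* 318 (7.15 CPM), which per kb were nearly even (53.0% and 47.0%). Of the calcium-binding subunits, the slow and cardiac form *Tnnc1* had 493 reads (11.1 CPM) and the fast form *Tnnc2* 259 (5.82 CPM), or 65.2% and 34.8% per kb. *Tnnc1* also led in the sorted libraries with at least 50 reads of the pair, LP replicate 2 (79.1%) and the ML libraries (75.7% to 92.1%). In MaSC/basal, with fewer reads, *Tnnc1* had 11, 11 and 22 and *Tnnc2* 19, 19 and 12. *Tnnc2* overlaps *Ube2c* on the other strand in 25.6% of its 100-base stretches, and *Ube2c* was at 18.3 CPM in the mammosphere library and 24.2 to 48.0 CPM in MaSC/basal. Ratios to MaSC/basal ran from 16.4 for *Tnni1* [13.6 to 19.9] to 90.5 for *Tnnt3* [59.2 to 146].

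**Figure D3:**
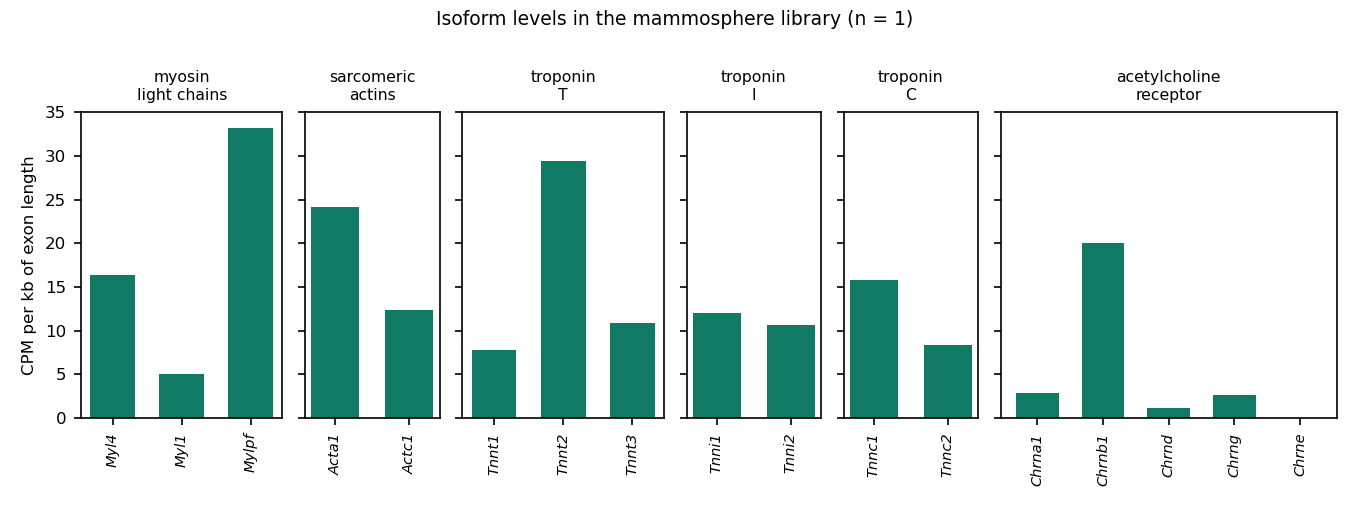
Levels in the mammosphere library (CPM per kb of exon length, 1 library, no error bars) of the isoforms of 6 families on the same axis. *Mylpf*, *Acta1* and *Tnnt2* are the highest of their families, slow and fast troponin I are nearly level, and of the receptor subunits *Chrne* is close to 0.

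Genes of the filaments that hold the sarcomere in register were also present. Titin (*Ttn*), the elastic filament, had 1465 reads in the mammosphere library (32.9 CPM) and 0.933 to 2.51 CPM in MaSC/basal. Nebulin (*Neb*), which lines the thin filament, had 1200 reads (27.0 CPM), against 8, 9 and 18 in MaSC/basal, a ratio of 125 [89.4 to 180]. Over their long transcripts these are low levels per kb, 0.316 CPM per kb for *Ttn* and 1.20 for *Neb*. Desmin (*Des*), the muscle intermediate filament, had 1272 reads (28.6 CPM) and 3.95 to 6.38 CPM in MaSC/basal, so its ratio was only 5.92 [5.41 to 6.47].

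The mature metabolic and calcium release genes were less prominent. *Ckm*, muscle creatine kinase and among the most abundant transcripts of adult fibres, had 19 reads in the mammosphere library (0.427 CPM [0.257 to 0.667]), below ML replicates 2 and 3 (0.877 and 0.820 CPM). The calcium release channel gene *Ryr1* had 656 reads (14.7 CPM), against 3.43, 2.55 and 3.05 CPM in MaSC/basal, a ratio of 4.86 [4.32 to 5.48]. The calcium store protein gene *Casq1* had 137 reads (3.08 CPM), below MaSC/basal (3.66, 4.36 and 3.11 CPM) at a ratio of 0.833 [0.686 to 1.00].

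The acetylcholine receptor of muscle is built from alpha, beta and delta subunits and a gamma subunit, which is replaced by epsilon as the fibre matures and is innervated. The gamma gene *Chrng* (chr1:87205811-87211835) had 223 reads in the mammosphere library (5.01 CPM [4.38 to 5.71]) and none in any of the other 10 libraries. It was thus at least 271-fold above the summed MaSC/basal libraries, taking a count of 0 as 3 reads over the group, and at least 660-fold above the 9 sorted libraries together. The delta gene *Chrnd*, its neighbour (chr1:87190597-87200070), had 155 reads (3.48 CPM) and otherwise 1 read, in LP replicate 2. The alpha gene *Chrna1* had 549 reads (12.3 CPM), against 5, 4 and 6 in MaSC/basal and 0 to 3 in each luminal library, a ratio of 133 [80.2 to 240]. Of the subunits not among the 34, the epsilon gene *Chrne* had 4 mammosphere reads (0.0899 CPM) and 2, 18 and 4 in MaSC/basal. Beta, *Chrnb1*, differed from the others in that it was found in all 11 libraries, at up to 114 CPM in LP replicate 1. At 43.0 CPM in the mammosphere library it was also above MaSC/basal (5.75, 10.1 and 9.45 CPM), at a ratio of 5.19 [4.83 to 5.56]. The receptor subunits in the mammosphere library were accordingly the fetal set, with 223 reads of gamma to 4 of epsilon.

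**Figure D4:**
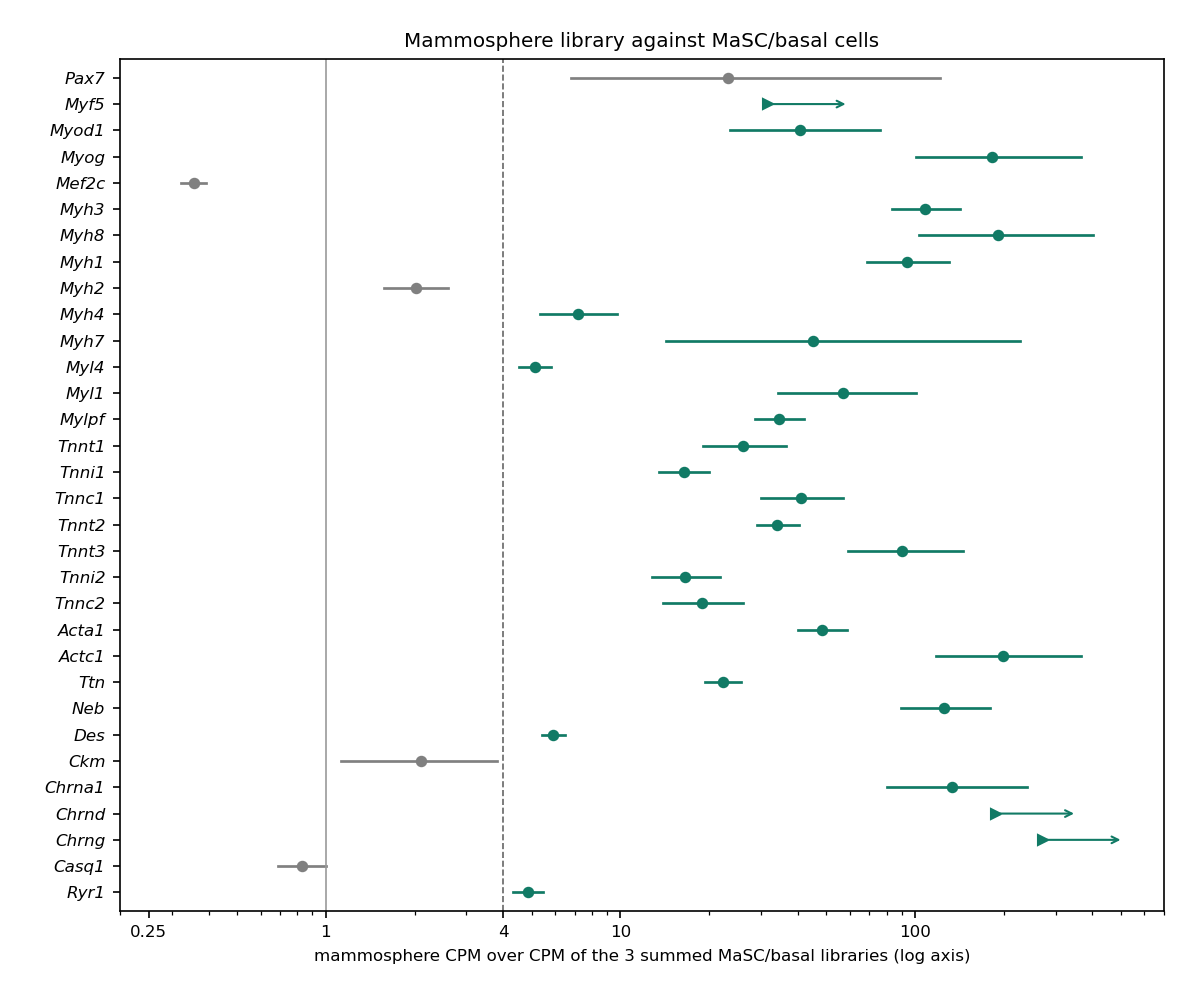
Ratio of the mammosphere CPM to the CPM of the 3 MaSC/basal libraries summed (log axis) for the 32 genes with a mammosphere read, with exact 95% counting intervals. Triangles with arrows are ratios with a count of 0 taken as 3 reads, where MaSC/basal had no read. Green genes are over 0.5 CPM and at least 4-fold higher (dashed line), grey genes are not, and *Mef2c* and *Casq1* lie below 1.

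The spread of these ratios rested partly on few MaSC/basal reads. Leaving out 1 MaSC/basal replicate moved them both ways. *Myh3*, at 108, was 180 [121 to 278] without replicate 2 and 88.0 [65.9 to 120] without replicate 1. *Myl1*, at 56.7, was 96.3 [43.6 to 265] without replicate 1 and 40.7 [24.2 to 73.9] without replicate 3. *Ttn*, at 22.3, was 33.6 [27.6 to 41.3] without replicate 3 and 18.4 [15.8 to 21.5] without replicate 1. *Myh7*, at 45.0, was 90.8 [15.3 to 3680] without replicate 3 and 31.1 [9.83 to 158] without replicate 2. Ratios with 0 taken as 3 reads fell with the depth of the reference, that of *Myf5* from 31.6 to 20.1 and that of *Chrng* from 271 to 173 without replicate 1. Against replicate 1 alone that of *Chrng* was 98.5. Against MaSC/basal replicate 1 alone, the library of the same batch, 27 genes were again at least 4-fold higher. The count was also 27 with DESeq2 size factors and without composition scaling. With a level of 0.25 CPM it was 28, since *Pax7* was then included, and with 1 CPM it was 25. The share of all genes under these settings is not given here, so nothing is read from these counts.

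Some muscle genes outside the 34 were higher in the mammosphere library as well. Of 84 further genes in 6 muscle lists, 62 were over 0.5 CPM in the mammosphere library (54.0% of all genes), 29 of them were at least 4-fold above MaSC/basal (6.14% of all genes) and 33 were above every sorted library (13.0% of all genes). For the counts of single lists at least 4-fold above MaSC/basal the background is the same 6.14%. These lists, too, were chosen with earlier results of these data known, so nothing is read from their shares. Of 10 genes of fusion and of the myoblast surface, 6 were at least 4-fold higher. The most abundant were *Myof* (463 CPM), *Itga7* (78.6 CPM), *Ncam1* (38.5 CPM, not 4-fold) and *Mymk* (4.70 CPM), and of these *Mymk*, the myomaker gene needed for fusion, had 209 reads there, none in MaSC/basal and at most 0.0353 CPM in a sorted library. *Mymx*, its partner in fusion, was singled out after its values were seen, with 29 reads there and none in any sorted library. In Comma Dβ *Myof* (783 CPM) and *Ncam1* (55.15 CPM) were higher, *Itga7* (35.4 CPM) was lower and *Mymk* had no read. The list summed to 905 CPM in Comma Dβ and 595 CPM in the mammosphere library. *Kirrel3*, also singled out after its values were seen, was at 0.0623 times its MaSC/basal level in the mammosphere library. Of 26 further genes of the sarcomere and Z disc, 12 were at least 4-fold higher, and *Myl2*, the slow and ventricular light chain, had no read. Their sum was nevertheless lower, at 429 CPM against 1167 to 1646 CPM in MaSC/basal, since *Tpm2*, a tropomyosin that smooth muscle also uses, was at 0.241 times its MaSC/basal level. *Mybph* was at 0.261 times, *Klhl40* at 0.778 times and *Nebl* at 0.894 times (all 4 singled out after their values were seen). *Actn2* (4.20 CPM), *Mybpc1* (5.64 CPM) and *Lmod3* (2.63 CPM), which were chosen after their values were seen, were 8.02-fold, 26.9-fold and 85.3-fold above MaSC/basal. Of 15 further genes of excitation and calcium handling, 5 were at least 4-fold higher, and their sum was 99.7 CPM against 103 to 145 CPM in MaSC/basal. *Cacna1s*, the voltage sensor of the fibre, likewise chosen after its values were seen, had 141 reads there and 1 in MaSC/basal, and *Pvalb*, a calcium buffer of adult fast fibres, had 1 read. *Atp2a1*, with 464 reads (10.4 CPM), was 15.1-fold [12.3 to 18.7] above MaSC/basal. *Jph2* was at 0.101 times its MaSC/basal level (both singled out after their values were seen).

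Of 12 genes of satellite cells, 3 were at least 4-fold above MaSC/basal, *Megf10* (25.4 CPM), *Heyl* (15.4 CPM) and *Musk* (0.989 CPM). None of the 3 was highest in the mammosphere library. *Megf10* (34.05 CPM) and *Musk* (3.26 CPM) were higher in Comma Dβ. *Heyl* was higher in LP replicates 1 and 2 (21.05 and 23.45 CPM) and in ML replicate 2 (23.05 CPM). The list was led by *Sdc4* (877 CPM), which all mammary libraries contain. *Calcr*, a marker of quiescent satellite cells, had no read in the mammosphere library, and the summed list was lower there (942 CPM) than in MaSC/basal (1342 to 1624 CPM). Of 9 genes of muscle metabolism, 1 was at least 4-fold higher, myoglobin (*Mb*, 17.4 CPM). Of 8 further myosin heavy chain genes 1 was, *Myh13*, at 0.607 CPM, and *Myh11*, the smooth muscle form, was at 92.4 CPM against at most 4605 CPM in a MaSC/basal library.

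Markers of other cell types moved as well. Of 12 cardiac genes, 2 were over 0.5 CPM in the mammosphere library, *Tnni3* (1.66 CPM) and *Nppb* (0.697 CPM). *Gata4* and *Myl2* had no read, *Nkx2-5* 1 read, and the summed list was at 3.35 CPM, below MaSC/basal (5.55 to 7.61 CPM). Epithelial genes remained high, the 6 basal genes at a sum of 5375 CPM (11380 to 13350 CPM in MaSC/basal) and the 7 luminal genes at 3394 CPM (1430 to 1716 CPM in MaSC/basal, 13670 to 16210 CPM in LP). The 10 smooth muscle and myoepithelial genes were lower, at 742 CPM against 12670 to 20330 CPM in MaSC/basal, with none at 0. Of 8 fibroblast genes 4 were at least 4-fold above MaSC/basal, with none at 0. The 8 summed to 2458 CPM, against 731 to 968 CPM in MaSC/basal, 297 to 1399 CPM in LP and 412 to 940 CPM in ML. Most of that sum was *Col1a1* (835 CPM), *Col1a2* (684 CPM) and *Col3a1* (678 CPM). Of the defining markers, *Pdgfra* (59.1 CPM) and *Col1a1* were 5.44-fold and 7.15-fold above MaSC/basal, and *Dcn* was at 0.519 times its MaSC/basal level. *Fbln1* was at 0.155 times its MaSC/basal level (*Col1a2*, *Col3a1* and *Fbln1* were singled out after their values were seen). Of 7 pericyte genes 4 were at least 4-fold above MaSC/basal, *Des* itself among them. The 7 summed to 378 CPM against 55.6 to 79.1 CPM in MaSC/basal and 232 to 344 CPM in the luminal libraries. Of its defining markers, *Pdgfrb* was at 150 CPM, 6.88-fold above MaSC/basal, and *Rgs5* at 1.12 CPM, 0.280 times its MaSC/basal level. Sums of the 8 endothelial genes (17.7 CPM against 77.9 to 160 CPM in MaSC/basal) and the 7 adipocyte genes (8.29 CPM against 30.6 to 69.4 CPM) were lower. That of the 8 immune genes was 18.8 CPM against 19.3 to 30.1 CPM. *Ptprc*, a defining marker of the list, had 12 reads and was at 0.260 times [0.132 to 0.467] its MaSC/basal level. *Cd52*, the other, had 6 reads, and *Cd74* had 20 against 2703 in MaSC/basal. The myeloid genes *Lyz2* (11.1 CPM), *Csf1r* (5.24 CPM) and *Itgam* (1.57 CPM) were 3.15-fold, 2.13-fold and 2.97-fold above MaSC/basal and above every sorted library. *Cd74* and these myeloid genes were also singled out after their values were seen. The 7 Schwann cell genes summed to 605 CPM, between MaSC/basal (279 to 294 CPM) and the highest LP library (708 CPM). The part of fibroblasts, pericytes, myeloid cells or any other cell type in the muscle levels was not tested.

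Among the sorted populations the muscle genes were low and did not move as one. Only 17 of the 34 passed the filter of 0.5 CPM in at least 3 of the 11 libraries and were tested with edgeR's quasi-likelihood method. A gene can pass this filter only through the group where it is high, so the counts among the 17 are read against all 15422 genes tested and not as a result of the list. In MaSC/basal against LP, 8 of the 17 were higher in MaSC/basal (29.4% of all genes tested) and 3 lower (28.0%). In MaSC/basal against ML, 6 were higher (28.9%) and 6 lower (29.7%). In LP against ML, none was higher in LP (14.3%) and 7 were lower (17.5%). Without ML replicate 3, *Mef2c* was higher in LP than in ML (log2 fold change 1.37, edgeR adjusted p = 0.0389). The median log2 fold change of the 17 was 1.39, -0.72 and -1.29 in the 3 comparisons, against -0.01 for all genes in each. The limit of the filter holds for these medians as well, so they are not read as a shift of the list. A share near the background, as in MaSC/basal against ML, is no result about these genes.

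The genes higher in MaSC/basal cells included *Mef2c*, the genes of calcium release and a fast myosin. *Mef2c* was at 27.0, 34.1 and 26.5 CPM in MaSC/basal, 0.705, 1.85 and 1.92 CPM in LP and 0.509, 0.624 and 2.28 CPM in ML, without overlap of MaSC/basal with either. Its log2 fold change was 4.29 ± 0.54 (SE) over LP (edgeR adjusted p = 8.8e-05) and 4.81 ± 0.56 over ML (edgeR adjusted p = 4.55e-05). *Ryr1* (3.01 ± 0.44 CPM in MaSC/basal, SD, n = 3) was 9.52-fold above LP (edgeR adjusted p = 1.26e-05) and 7.44-fold above ML (edgeR adjusted p = 1.66e-05). *Casq1* (3.71 ± 0.63 CPM) was 9.73-fold above LP and 8.70-fold above ML (edgeR adjusted p = 3.63e-05 and 3.87e-05). Both were thus highest in the population from which the mammospheres were grown. *Myh2* had 48, 73 and 64 reads in MaSC/basal, none in LP and 0, 7 and 6 in ML. Taking 0 as 3 reads over the LP group it was at least 38.2-fold above LP (edgeR adjusted p = 0.000761), and it was 10.9-fold above ML (edgeR adjusted p = 0.00403). *Tnni1* and *Myl4* were also higher in MaSC/basal than in either luminal population, by 8.35-fold and 2.84-fold over LP and 13.4-fold and 4.97-fold over ML (edgeR adjusted p from 0.000331 to 0.00422). *Des*, at 3.95, 6.38 and 4.35 CPM in MaSC/basal, was 11.1-fold above LP (edgeR adjusted p = 0.00038). Over ML its log2 fold change was 1.11 ± 0.47 (edgeR adjusted p = 0.0637), which passed with the library batch as a replicate block (1.56, edgeR adjusted p = 0.00148), by DESeq2 and by limma voom (adjusted p = 0.0316 and 0.0168), and without LP replicate 1, LP replicate 3 or ML replicate 3 (edgeR adjusted p = 0.0359, 0.0432 and 0.0154, the last at a log2 fold change of 1.59).

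The genes higher in luminal cells were troponins, nebulin and skeletal actin. *Tnnc1* rose stepwise, with 0.187, 0.219 and 0.414 CPM in MaSC/basal, 0.705, 0.936 and 1.28 CPM in LP and 4.02, 3.43 and 2.73 CPM in ML, and no 2 populations overlapped. It was 3.50-fold higher in LP than in MaSC/basal, 12.4-fold higher in ML than in MaSC/basal and 3.54-fold higher in ML than in LP (edgeR adjusted p = 0.00226, 1.83e-05 and 0.0041). *Tnnt2* (MaSC/basal 1.04 ± 0.22 CPM, LP 2.85 ± 0.43 CPM and ML 2.96 ± 0.23 CPM, SD, n = 3 each) was 2.74-fold higher in LP and 2.86-fold higher in ML than in MaSC/basal (edgeR adjusted p = 0.000239 and 0.000157), and its LP over ML log2 fold change was -0.06 ± 0.21. *Neb* was 4.49-fold higher in LP and 6.28-fold higher in ML than in MaSC/basal (edgeR adjusted p = 0.000614 and 0.000129). *Acta1* was 5.57-fold higher in ML than in MaSC/basal (edgeR adjusted p = 0.0119). LP over ML it did not pass (-1.29 ± 0.68, edgeR adjusted p = 0.175), but LP replicate 1, at 3.77 CPM, stood within the ML range, and without it the log2 fold change was -2.87 (edgeR adjusted p = 0.00572). Without LP replicate 2, *Acta1* was also lower in MaSC/basal than in LP (log2 fold change -1.70, edgeR adjusted p = 0.0415).

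Several genes of fast fibres were higher in ML than in LP. *Myh4* had 16, 108 and 18 reads in ML (0.452, 1.44 and 0.820 CPM) and 1, 5 and 1 in LP, a 13.2-fold difference (edgeR adjusted p = 0.00214), and it was 6.06-fold higher in MaSC/basal than in LP (edgeR adjusted p = 0.00521). In MaSC/basal against ML it did not pass (log2 fold change -1.13 ± 0.45, edgeR adjusted p = 0.0543), and it did without ML replicate 1 and with the replicate block (edgeR adjusted p = 0.0157 and 0.0103). *Mylpf* was 3.29-fold higher in ML than in LP and 2.19-fold higher than in MaSC/basal (edgeR adjusted p = 0.00191 and 0.00318). *Tnnt3*, *Tnni2* and *Tnnc2*, the fast troponins, were 5.09-fold, 4.31-fold and 3.50-fold higher in ML than in LP (edgeR adjusted p = 0.0251, 0.0226 and 0.0187), and *Des* 5.14-fold (edgeR adjusted p = 0.0104). The calls of the 3 fast troponins were lost under some alternatives. Where tested, the log2 fold change of LP over ML stayed between -2.81 and -1.93 for *Tnnt3*, -2.45 and -1.71 for *Tnni2* and -2.43 and -1.57 for *Tnnc2*. *Tnni2* was tested in all 17 alternatives, and *Tnnt3* and *Tnnc2* in 14. These 2 genes passed the filter only through ML replicates 2 and 3 and the single mammosphere library. They were therefore not tested in the 9 sorted libraries alone or without ML replicate 2 or 3. *Tnnt3* lost its call without any 1 LP replicate (edgeR adjusted p from 0.056 to 0.0801) and by limma voom (0.0737), *Tnni2* without LP replicate 1, LP replicate 2 or ML replicate 3 (0.0724, 0.0976 and 0.0594) and *Tnnc2* without LP replicate 1 or 3 (0.0656 and 0.0503). *Tnnt3* was 5.87-fold higher in ML than in MaSC/basal (edgeR adjusted p = 0.0059). *Ckm*, not among the 17, pointed the same way in reads, with 8, 66 and 18 in ML, 2, 1 and 1 in LP and 7, 18 and 8 in MaSC/basal. *Pvalb*, from the further genes, had 6, 39 and 13 reads in ML and 0 or 1 in each other library. The ML libraries, on the other hand, had 0 to 1 read each of *Myog*, *Myh8* and *Chrng*.

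**Figure D5:**
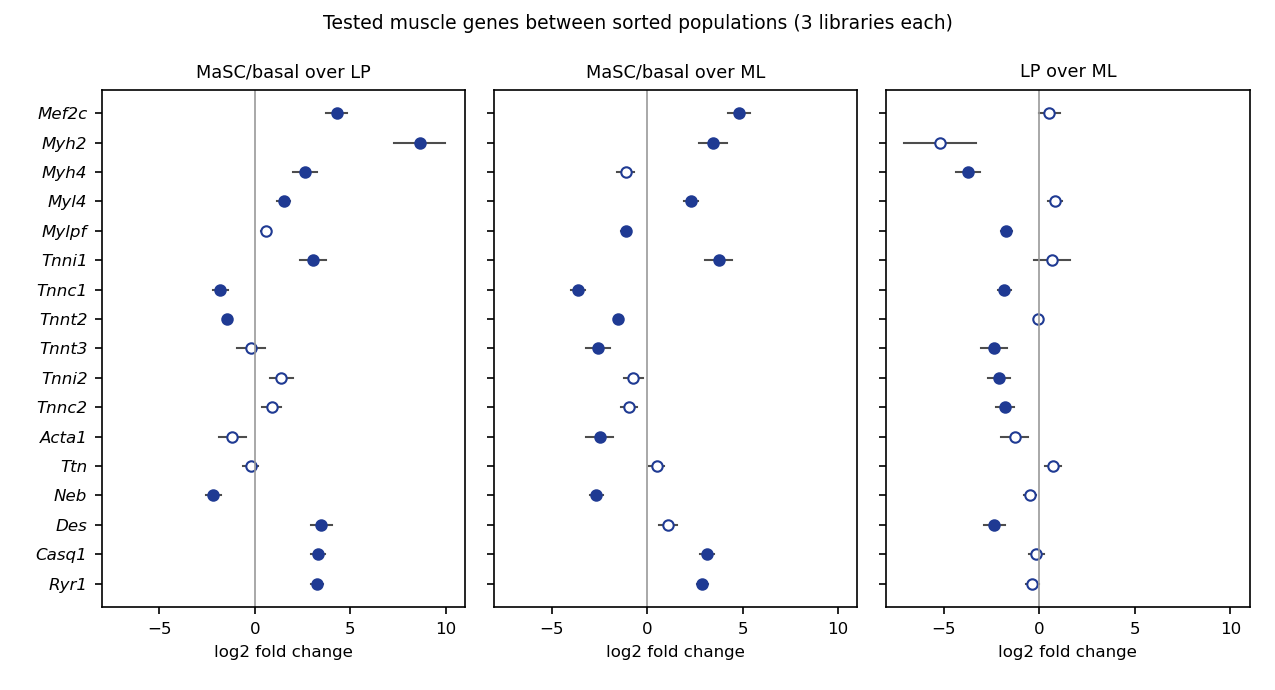
Log2 fold change ± SE (edgeR quasi-likelihood fit) of the 17 tested muscle genes between the 3 sorted populations, 3 libraries each, with filled points at an adjusted p under 0.05. *Mef2c*, *Casq1* and *Ryr1* lie to the right in both MaSC/basal panels, *Tnnc1*, *Tnnt2* and *Neb* to the left, and no filled point lies to the right in the LP over ML panel; the *Myh2* point against LP depends on how zero counts are handled.

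The other 17 genes were too low for the filter, although 13 of them were over 0.5 CPM in the mammosphere library. Without the filter, the embryonic and perinatal myosins *Myh3* and *Myh8*, *Myh1* and *Myod1* were higher in MaSC/basal than in LP (edgeR adjusted p = 0.00779, 0.0209, 0.00134 and 0.0109), and *Myh3* was higher than in ML (edgeR adjusted p = 0.00399). *Myh7* was lower in MaSC/basal than in LP and ML (edgeR adjusted p = 0.00487 and 0.000393), and *Ckm* and *Myl1* were lower in LP than in ML (edgeR adjusted p = 0.00522 and 0.0172). *Myod1* and *Myh8* had no read in LP, and taking 0 as 3 reads over that group they were at least 2.89-fold and 2.07-fold higher in MaSC/basal.

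The Comma Dβ library did not share the programme of the mammosphere library. Of the 34 genes, 4 were over 0.5 CPM and at least 4-fold above MaSC/basal (background 3.82% of all genes), *Tnnt2*, *Tnni2*, *Myh1* and *Tnnc1*. *Tnnt2* was higher there than in the mammosphere library, with 1326 reads (45.1 CPM against 35.1 CPM), and it made up 99.4% of its troponin T reads. *Tnni2* had 256 reads (8.70 CPM) and *Myh1* 77 (2.62 CPM), and *Tnnc1*, at 1.22 CPM, was within the LP range. *Myog*, *Myod1*, *Myf5*, *Myh8*, *Actc1*, *Chrna1*, *Chrnd* and *Chrng* had no read, which at this depth allows up to 0.102 CPM. *Pax3* and *Myf6*, absent from the mammosphere library, had 13 and 7 reads (0.442 and 0.238 CPM), both below 0.5 CPM.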

How the data were processed

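Single-end reads were aligned to mm10 (GRCm38) by the authors and counted per Entrez gene with featureCounts, and the deposited values are the raw counts of 27179 genes per library without normalization or filtering. The handling of reads that match several genes, and whether strand was used, are not given in the sources used here. The processing notes also name CASAVA 1.8.0, edgeR 3.6.2 and limma 3.20.5. Symbols were taken from a RefSeq table (GRCm38.p6), which gave one for 25275 genes. The 34 genes and all other lists were chosen with earlier results of these data known, and all 34 are named. Of the further muscle lists counts and a few genes are given, except that a list of myogenic regulators, which enters the total over these lists, is not reported here on its own.

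The tests were run with edgeR 4.0.16 under R 4.3.3. Genes over 0.5 CPM in at least 3 of 11 libraries (15422) were fitted with TMM factors and 5 group means, 1 per sample type, and the 3 sorted populations were compared pairwise by the quasi-likelihood test at a Benjamini-Hochberg adjusted p under 0.05. The fit was tested on simulated data with known changes before use. Mammosphere and Comma Dβ values were compared with the summed MaSC/basal libraries, with exact Poisson intervals for levels and exact conditional binomial (Clopper-Pearson) intervals for ratios and shares. A count of 0 was taken as 3 reads. Where a fold is given as at least a value for that reason, the counting error of the higher group is not included. No molecular identifiers were used, so reads are not independent molecules and intervals cover counting error only. Shared stretches were counted in GENCODE M21 transcripts.

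Library batch, given in the labels, was the source of the pairing for the replicate block. Deviations from the group means of same-batch libraries correlated at 0.32, 0.313 and 0.526 for LP and ML, and at -0.118 to 0.289 for pairs with MaSC/basal. Alternatives were other scalings, filters, levels, folds and references, the Wald test of DESeq2 1.42.0, limma voom with limma 3.58.1, the 9 sorted libraries alone, the replicate block, and leaving out each sorted library in turn.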

Additional observations from a re-analysis of the deposited data

How the results depend on the processing

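With the library batch as a replicate block, 12, 14 and 8 of the muscle genes passed in MaSC/basal against LP, MaSC/basal against ML and LP against ML, instead of 11, 12 and 7. The block ended no call. Besides *Des* and *Myh4* in MaSC/basal against ML, it added *Tnni2* in MaSC/basal against LP (log2 fold change 1.63, edgeR adjusted p = 0.0125) and *Myh2* in LP against ML (-5.11, 0.0377). *Myh2* had no read in LP, so its fold change there depends on how zero counts are handled. Taking 0 as 3 reads over the LP group, it was at least 3.29-fold higher in ML than in LP. Leaving out 1 sorted library gave 11 to 12, 11 to 14 and 5 to 8 calls. Beyond the changes named with the genes, *Tnni2* passed in MaSC/basal against LP without MaSC/basal replicate 1 or ML replicate 1 (adjusted p = 0.045 and 0.0437), as did *Ttn* without MaSC/basal replicate 3 (0.048), and *Tnnc2* in MaSC/basal against ML and *Myh2* in LP against ML did without ML replicate 1 (0.0347 and 0.0267). *Myh2* in LP against ML also passed by DESeq2 (0.0155) and *Acta1* by limma voom (0.0346). Without composition scaling, *Mylpf* and *Tnni2* in MaSC/basal against LP and *Myh4* in MaSC/basal against ML did (0.0469, 0.0485 and 0.0464). Without a filter, and with filterByExpr, 16, 15 and 9 genes passed, since more of the low genes were tested. No called gene changed direction under any alternative in which it was tested, and all 9 lost calls were of the 3 fast troponins in LP against ML. The count of mammosphere genes at least 4-fold above MaSC/basal was 28 at 2-fold, 23 at 8-fold and 22 against the highest sorted library. The comparison with the MaSC/basal library of the same batch was chosen after seeing the data. The Comma Dβ count of 4 ranged from 3 to 6. For the counts under these alternatives the share of all genes is not given here, so nothing is read from them. Of the 34 genes, 17 lay under the filter, so depth limits what can be said of those genes among the sorted cells, and the single cultured libraries give no measure of the spread between cultures.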
